A study of Rattus norvegicus with 6 samples.

Results

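The major histocompatibility complex (MHC) genes of the rat carry the prefix RT1-, and with the genes that cut, carry and load peptides onto their products they make up the antigen presentation machinery described here. Members were all RT1- symbols plus *B2m*, *Tap1*, *Tap2*, *Tapbp*, *Psmb8*, *Psmb9*, *Psmb10*, *Cd74*, *Ciita*, *Erap1*, *Calr*, *Canx* and *Pdia3*, looked up through the RefSeq accessions of the array rows. The choice used names only and no measured value. The RefSeq gene table lists 80 such genes, and 50 of them matched a row by accession, 1 each, among the 26299 features tested. Of the 50, 39 belong to class I, with 29 heavy chain genes and 10 genes of peptide loading, and 11 belong to class II, with 9 chain genes, the invariant chain gene *Cd74* and the transactivator gene *Ciita*. The 30 genes without a matched row were 19 pseudogenes, 4 genes of other non-coding types and 7 protein coding genes, *Erap1*, *RT1-Db2*, *RT1-M1-5*, *RT1-M4*, *RT1-O1l1*, *RT1-T24-1* and *RT1-T24-3*, and they were not analysed here. A gene may still have a row under an accession that the table does not list.

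Class I molecules consist of a polymorphic heavy chain and *B2m*, the invariant light chain, and they display peptides from proteins made inside the cell on almost every cell of the body. The peptides are cut by the proteasome, of which *Psmb8*, *Psmb9* and *Psmb10* encode the interferon-inducible catalytic subunits, pumped into the endoplasmic reticulum by *Tap1* and *Tap2*, and loaded with the help of tapasin (*Tapbp*), *Calr*, *Canx* and *Pdia3*. Class II molecules pair an alpha with a beta chain, are made mainly by dendritic cells, macrophages and B cells, and display peptides from endocytosed proteins. *Cd74* guides and plugs the new class II dimer, the DM molecule removes the plug, the DO molecule restrains DM, and *Ciita* switches the class II genes on. Skeletal muscle fibres are known to carry little class I and no class II at rest, so that class II RNA in muscle is usually ascribed to cells between the fibres.

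Skeletal muscle RNA was measured in 1-day-old male Wistar pups that had received no treatment and were grouped by weight at birth only. The 3 lower birth weight (LBW) pups lay between percentiles 5 and 25, and the 3 average birth weight (ABW) pups are placed between 50 and 75 by the breeding protocol but between 25 and 75 by their own sample labels. The soleus and gastrocnemius of a pup formed 1 sample, with 1 single-colour array per pup. The labels call the pups of a group biological replicates but name no litters, so p-values measure the spread between these pups. The values are log2 signals that the authors had normalized, with array medians between 8.695 and 8.757, and they carry no detection call. Of 8 skeletal muscle markers with a row, 0 were called different, against 4.27% of all features. *Acta1*, the skeletal alpha actin, was at 15.32 ± 0.14 in LBW and 15.36 ± 0.06 in ABW pups (SD, n = 3). The LBW arrays were not alike: 9 bone and neutrophil genes lay on average 3.76, 1.08 and 4.39 log2 units above the ABW mean in LBW 1, 2 and 3. Results were therefore also computed without each pup.

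The upstream sequences of the class II genes are shown first, because the rule did not use them and 2 of the 3 called members are class II genes. Class II promoters are known for an X box, bound by the RFX complex, followed by a Y box, an inverted CCAAT motif bound by NF-Y, on which *Ciita* is recruited. The stretches below are from RefSeq promoter windows of the build GRCr8, 5′ to 3′ on the gene's strand, and each ends before the annotated gene start. Capitals mark CCAAT on the reverse strand (ATTGG) and matches to the X box letters, G, 2 bases of any kind, AC, 1 base of any kind and GATG.
RT1-Db1 (chr20:4560230-4560287, minus strand): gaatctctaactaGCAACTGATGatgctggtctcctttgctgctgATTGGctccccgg
RT1-Da (chr20:4515321-4515378, plus strand): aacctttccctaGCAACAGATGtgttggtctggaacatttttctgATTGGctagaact
RT1-Bb (chr20:4604167-4604224, minus strand): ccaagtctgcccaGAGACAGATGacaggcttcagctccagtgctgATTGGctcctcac
RT1-Ba (chr20:4576969-4577026, plus strand): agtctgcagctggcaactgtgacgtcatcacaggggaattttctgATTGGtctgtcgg
RT1-DMa (chr20:4712387-4712444, minus strand): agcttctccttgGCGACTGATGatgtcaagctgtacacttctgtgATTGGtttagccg
RT1-DOa (chr20:4758518-4758575, minus strand): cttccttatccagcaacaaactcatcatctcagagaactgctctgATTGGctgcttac
RT1-DOb (chr20:4627594-4627651, minus strand): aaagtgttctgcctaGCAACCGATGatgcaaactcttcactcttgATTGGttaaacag
RT1-Ha (chr20:4772241-4772298, minus strand): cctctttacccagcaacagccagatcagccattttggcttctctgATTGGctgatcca

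All 9 class II members with a promoter window held CCAAT on one strand or the other, against 60% of the 35 class I windows and 37.5% of all 33469 windows of the same length (300 bases, 250 before and 50 after the start). The X box letters were picked after these sequences had been read, so their count is a description only: *RT1-Db1*, *RT1-Da*, *RT1-Bb*, *RT1-DMa* and *RT1-DOb* held them, as did 7 of 35 class I windows and 2.84% of all windows. In these 5 class II windows, 20 to 23 bases lay between the X box letters and ATTGG. *RT1-Ba*, *RT1-DOa* and *RT1-Ha* held ATTGG without that exact X box spelling.

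The class I windows were searched for the interferon-stimulated response element (ISRE), the site through which interferon regulatory factors act, as TTTC, 2 bases of any kind and TTTC on both strands. It was found in 9 of the 35 class I windows (25.7%), in 0 of the 9 class II windows and in 3.92% of all windows. The carriers were *B2m*, *Tap1*, *Tap2*, *Tapbp*, *Psmb8*, *Psmb10*, *RT1-N3*, *RT1-S2* and *RT1-S3*. *RT1-N3* is printed beside *RT1-N2*, a gene of the same block, because the former was called lower in LBW pups and the latter was not. *RT1-N2* nevertheless lay lower in every LBW pup than in any ABW pup. A link between the motif and the fold changes was not tested. Capitals mark ISRE matches (those on the reverse strand read GAAA, 2 bases and GAAA) and, in *RT1-N3* and *RT1-N2* only, CCAAT on either strand.
RT1-N3 (chr20:2666264-2666421, plus strand): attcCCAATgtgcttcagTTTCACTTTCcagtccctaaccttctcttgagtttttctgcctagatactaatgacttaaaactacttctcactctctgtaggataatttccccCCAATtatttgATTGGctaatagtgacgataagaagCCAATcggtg
RT1-N2 (chr20:2646105-2646290, plus strand): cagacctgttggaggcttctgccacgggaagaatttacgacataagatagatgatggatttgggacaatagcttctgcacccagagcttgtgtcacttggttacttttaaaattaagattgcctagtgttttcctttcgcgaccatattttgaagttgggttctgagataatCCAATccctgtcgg
B2m (chr3:129549165-129549201, plus strand): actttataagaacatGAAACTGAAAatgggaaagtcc
Tap1 (chr20:4668643-4668679, minus strand): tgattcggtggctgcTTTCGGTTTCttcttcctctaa
Psmb8 (chr20:4657026-4657050, minus strand): tcttggtgctgtggcTTTCGCTTTC
Psmb10 (chr19:50743293-50743380, minus strand): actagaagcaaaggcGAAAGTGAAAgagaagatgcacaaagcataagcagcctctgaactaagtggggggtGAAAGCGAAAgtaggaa
Tap2 (chr20:4652316-4652352, minus strand): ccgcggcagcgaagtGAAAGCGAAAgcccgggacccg
Tapbp (chr20:4967878-4967918, minus strand): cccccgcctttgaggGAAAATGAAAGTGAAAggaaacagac
RT1-S2 (chr20:2654882-2654918, plus strand): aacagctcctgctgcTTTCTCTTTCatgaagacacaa
RT1-S3 (chr20:2675401-2675437, plus strand): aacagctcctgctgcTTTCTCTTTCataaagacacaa

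The *RT1-N2* window held no ISRE match, and the *RT1-S2* and *RT1-S3* stretches differed at 1 of 37 bases. The gamma-activated site, searched as TTCNNNGAA on both strands, was in 2 of 44 member windows and 8.87% of all windows. No promoter window was matched for *Ciita*, *Pdia3*, *RT1-CE7*, *RT1-DMb*, *RT1-M1-4* and *RT1-M2*. A match of letters does not show that a factor was bound.

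LBW muscle held less signal for 3 antigen presentation genes: the class II beta chain genes *RT1-Db1* and *RT1-Bb* and the class I heavy chain gene *RT1-N3*. They were the only members past the threshold of the study's methods, an unadjusted p under 0.05 with a fold change of at least 1.5, when tested by limma, and all 3 were lower. By the methods' t-test *RT1-N3* alone was past it. By limma, 4.27% of all features passed that threshold in either direction and 1.89% passed it as lower, and the 3 members are 6% of the 50. On a count of 3, this share is close to the background for calls in either direction and above that for lower calls. After Benjamini-Hochberg adjustment over all features the share called by limma was 0%, with 0 members, while 3250 features had an unadjusted p under 0.05. At that unadjusted p alone, 12 of 50 members were past it and all 12 were lower, where 6.73% of all features were past it as lower.

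The members leaned one way as a group. The log2 fold change (LBW minus ABW) was below 0 in 39 of 50 members (78%), against 55.6% of all features (38 members under quantile normalization, 40 under median centring), and its median was -0.20, against -0.02 over all features. In 17 members (34%) every LBW pup lay below every ABW pup, against 10.1% of all features, and in 2 members, *Canx* and *RT1-M2*, every LBW pup lay above, against 7.27%. With any single pup left out, between 17 and 24 members separated in the lower direction, while the share of all features doing so also grew, to between 13.3% and 19.6%. Many RT1 genes are near-identical copies whose probes can share signal, so the members are not independent of each other and the counts are descriptions. The pups' RT1 alleles are not given in the sources used here, and in an outbred stock a mismatch between an allele and a probe cannot be told apart from a lower level of RNA.

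**Figure D1:**
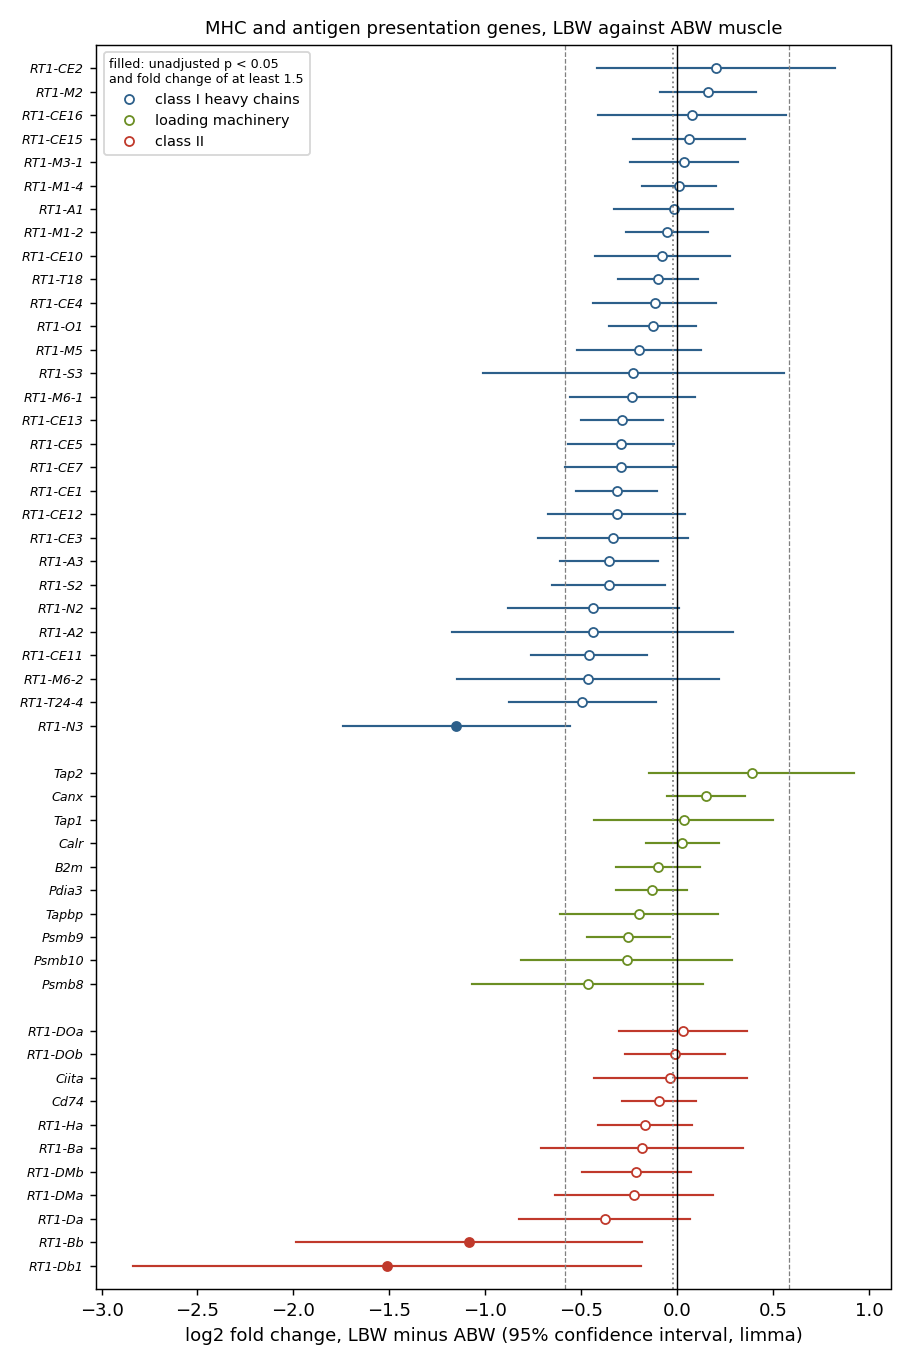
Log2 fold change (LBW minus ABW, n = 3 pups per group) of the 50 members on the horizontal axis, with the 95% confidence interval from limma, for class I heavy chains, peptide loading genes and class II. Filled points are *RT1-N3*, *RT1-Bb* and *RT1-Db1*, the 3 members past the unadjusted threshold; dashed lines mark a fold change of 1.5 either way and the dotted line the median of all features (-0.02).

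Among class II chains, *RT1-Db1*, the beta chain of the RT1-D molecule that corresponds to human HLA-DR, differed most. Its log2 signal was 8.05, 8.67 and 6.42 in LBW 1, 2 and 3, versus 8.92, 9.55 and 9.21 in ABW 1, 2 and 3. All LBW pups were below all ABW pups, and LBW 3 lay far below the other 2 LBW pups. *RT1-Db1* fell by 1.51 on the log2 scale (SE 0.55), a mean of 0.350 times the ABW level (unadjusted p = 0.0309, limma adjusted p = 0.358; 2-sided exact permutation p = 0.1, which is the lowest possible with 3 against 3). *RT1-Db2*, a close copy of *RT1-Db1*, had no row, and the probes of *RT1-Db1* may read both. In bulk tissue, fewer class II cells and less class II RNA per cell cannot be told apart.

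*RT1-Bb* encodes the beta chain of the RT1-B molecule, the counterpart of human HLA-DQ. It was at 7.76, 7.95 and 6.76 in LBW 1, 2 and 3, versus 8.04, 9.03 and 8.66 in ABW 1, 2 and 3. The groups did not overlap, but LBW 2 and ABW 1 were only 0.09 apart, and LBW 3 was again the lowest pup. *RT1-Bb* fell by 1.09 on the log2 scale (SE 0.38, limma adjusted p = 0.342).

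The calls of both beta chains rested on few pups and were not made by the methods' t-test. *RT1-Db1* and *RT1-Bb* were not past the threshold without ABW 2, with log2 fold changes of -1.35 and -0.86, or without ABW 3, with -1.52 and -1.04. *RT1-Bb* was also not past it without LBW 3, at -0.72, whereas *RT1-Db1* was past it, at -0.87.

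The alpha chains that pair with these beta chains differed less and overlapped between groups. *RT1-Da*, the partner of *RT1-Db1*, was at 11.56, 11.26 and 10.84 in LBW 1, 2 and 3 and at 11.67, 11.64 and 11.48 in ABW 1, 2 and 3. LBW 3 was the lowest here too, while LBW 1 lay within the ABW values, and the log2 fold change was -0.38 (SE 0.19, limma adjusted p = 0.468). *RT1-Ba*, the partner of *RT1-Bb*, was at 9.28, 9.66 and 8.90 in LBW 1, 2 and 3 and at 9.58, 9.18 and 9.63 in ABW 1, 2 and 3. LBW 2 was the highest of all 6 pups and LBW 3 the lowest, and the log2 fold change was -0.18 (SE 0.22, limma adjusted p = 0.779).

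Within each pup, the deviation of *RT1-Db1* from its ABW mean minus that of *RT1-Da* was -1.14, -0.22 and -2.05 in LBW 1, 2 and 3, versus -0.38, 0.28 and 0.10 in the ABW pups. LBW 2 lay above ABW 1, so this chain difference overlapped between the groups. For *RT1-Bb* minus *RT1-Ba* it was -0.63, -0.83 and -1.25 in LBW 1, 2 and 3, versus -0.65, 0.73 and -0.08 in ABW 1, 2 and 3. Here ABW 1 lay among the LBW pups, and a difference between beta and alpha chains was not tested.

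The invariant chain gene *Cd74* was nearly level. It was at 12.61, 12.53 and 12.53 in LBW 1, 2 and 3 and at 12.69, 12.66 and 12.60 in ABW 1, 2 and 3. The groups overlapped by 0.02, and the log2 fold change was -0.09 (95% confidence interval -0.29 to 0.10, limma adjusted p = 0.684). *Ciita*, the transactivator, was at 6.60, 6.77 and 6.60 in LBW 1, 2 and 3 and at 6.68, 7.01 and 6.39 in ABW 1, 2 and 3. All LBW values of *Ciita* lay inside the ABW range, with a log2 fold change of -0.04 (95% confidence interval -0.44 to 0.36).

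The remaining class II members edit the peptide cargo or are little known, and none was called. *RT1-DMa* and *RT1-DMb*, the 2 chains of the DM editor, had log2 fold changes of -0.23 (SE 0.17) and -0.21 (SE 0.12). *RT1-DOa* and *RT1-DOb*, the chains of the DM inhibitor DO, had 0.03 and -0.01, and *RT1-Ha*, a class II alpha chain gene related to human DP, had -0.17 with groups 0.02 apart. *RT1-DOa*, *RT1-Ha* and the 7 class I members *RT1-M1-2*, *RT1-M1-4*, *RT1-M2*, *RT1-M5*, *RT1-M6-2*, *RT1-O1* and *RT1-T18* were in the lowest 25% of all features by mean signal, where the distance to background is unknown.

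LBW 3 was the lowest of the 6 pups in 6 of the 11 class II members and ABW 2 the highest in 6. Over all features LBW 3 was the lowest in 6111 of 26299 and ABW 2 the highest in 3979.

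**Figure D2:**
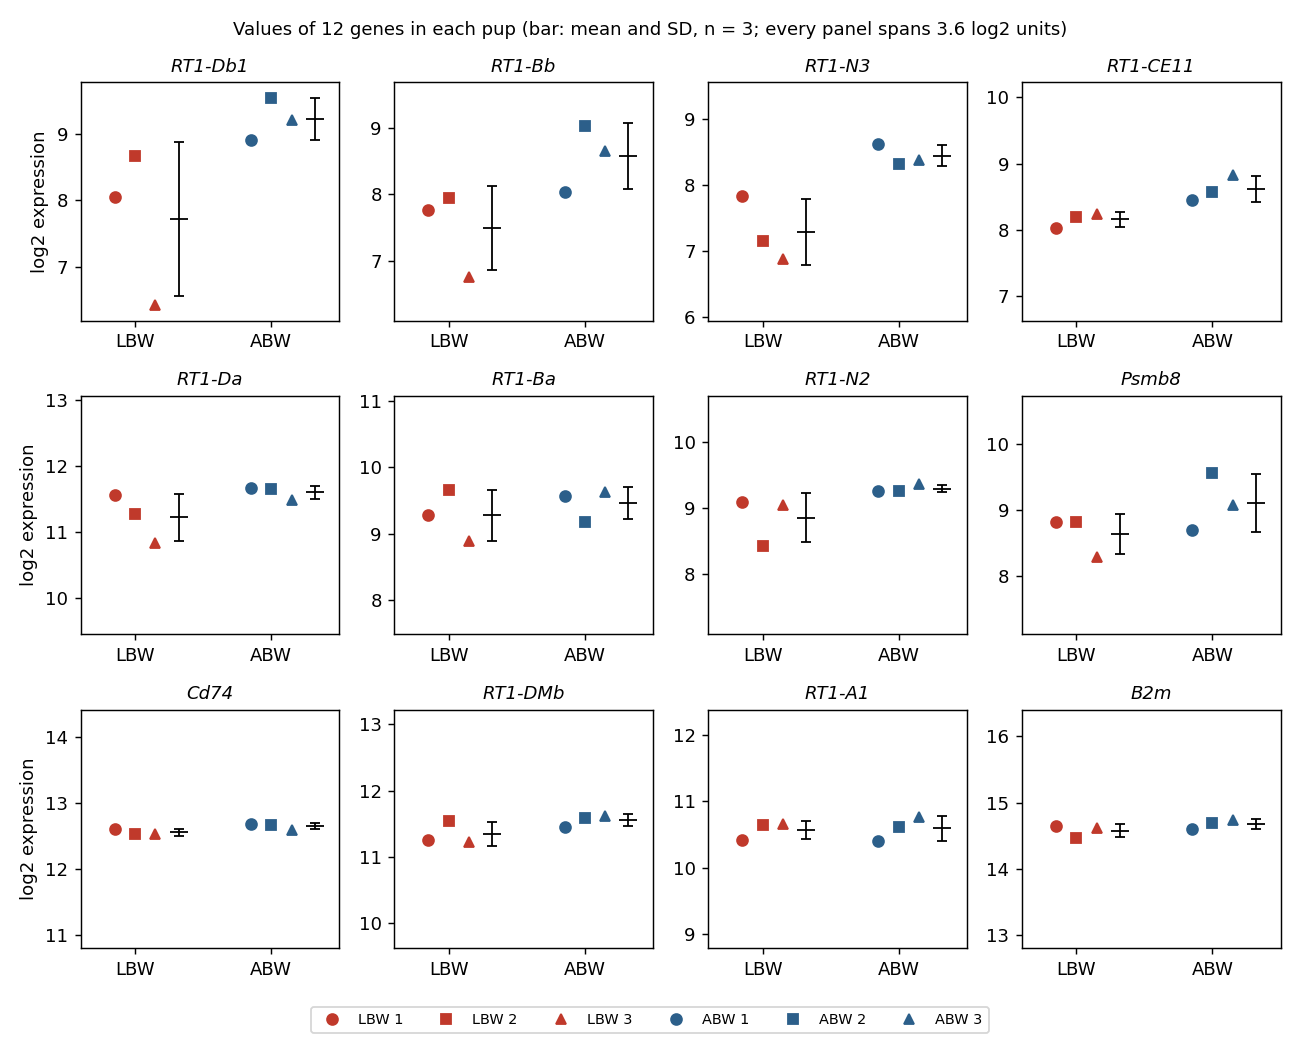
Log2 expression of 12 members in each of the 6 pups, with LBW pups in red and ABW pups in blue, pups 1 to 3 by symbol, and the mean and SD of each group as bars (n = 3). *RT1-Db1*, *RT1-Bb* and *RT1-N3* separate the groups by up to 0.49 log2 units, with LBW 3 lowest in each, whereas *Cd74*, *RT1-A1* and *B2m* stay within 0.4 log2 units over all 6 pups.

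Among class I heavy chains, 23 of 29 (79.3%) had a log2 fold change below 0, against 55.6% of all features, with a median of -0.23. In 12 of the 29 (41.4%) all LBW pups lay below all ABW pups, against 10.1% of all features. In 1 of the 29 all LBW pups lay above, against 7.27%. *RT1-N3*, a non-classical heavy chain gene, was the only one of the 29 called (3.45%, against 4.27% of all features called in either direction). It was at 7.83, 7.15 and 6.87 in LBW 1, 2 and 3, versus 8.62, 8.32 and 8.37 in ABW 1, 2 and 3. The nearest LBW and ABW pups were 0.49 apart, the widest gap of any member. *RT1-N3* fell by 1.15 on the log2 scale (SE 0.25), to 0.450 times the ABW level (unadjusted p = 0.00277, limma adjusted p = 0.250; 2-sided exact permutation p = 0.1). It passed the unadjusted threshold in each of the 6 fits with a pup left out.

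*RT1-N3* lies in the block of non-classical genes named N, O, S and T. All 7 members of that block with a row had log2 fold changes below 0 (median -0.36), where 55.6% of all features did, and 5 separated the groups in the lower direction, where 10.1% of all features did. *RT1-T24-4* was at 10.22, 10.53 and 10.78 in LBW 1, 2 and 3 and at 11.17, 10.93 and 10.91 in ABW 1, 2 and 3. The groups were 0.13 apart, and the log2 fold change was -0.49 (SE 0.16, unadjusted p = 0.0193, limma adjusted p = 0.325). *RT1-N2* had a log2 fold change of -0.44 (SE 0.19), and LBW 2 differed most: it was at 8.43, with LBW 1 and 3 at 9.09 and 9.05 and the ABW pups between 9.26 and 9.36. *RT1-S2* had -0.36 (SE 0.12, unadjusted p = 0.0239). *RT1-S3*, whose product is related to the mouse Qa-1 molecule read by natural killer cells, had -0.23 (SE 0.33) with overlapping groups, since ABW 3 was at 10.71 and the other 5 pups between 9.42 and 9.94. *RT1-O1* and *RT1-T18* had -0.13 and -0.10, and the groups of *RT1-T18* were less than 0.001 apart.

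The RT1-CE genes, a large cluster of class I copies, had smaller and more even differences. *RT1-CE11* was at 8.03, 8.20 and 8.24 in LBW 1, 2 and 3, versus 8.45, 8.57 and 8.83 in ABW 1, 2 and 3. All LBW pups were lower, with 0.21 between the nearest pups, and the log2 fold change was -0.46 (SE 0.13, unadjusted p = 0.00922, limma adjusted p = 0.291). *RT1-CE1* was at 10.76, 10.58 and 10.69 in LBW 1, 2 and 3, versus 10.98, 11.05 and 10.94 in ABW 1, 2 and 3. Its groups were 0.18 apart and its log2 fold change was -0.31 (SE 0.09, unadjusted p = 0.0102, limma adjusted p = 0.296). *RT1-CE5*, *RT1-CE7* and *RT1-CE13* also separated the groups, each with a log2 fold change of -0.29. In all, 5 of the 12 (41.7%) separated as lower, where 10.1% of all features did. *RT1-CE3* and *RT1-CE12* overlapped at -0.34 and -0.32, and *RT1-CE4* and *RT1-CE10* overlapped at -0.12 and -0.08. *RT1-CE2*, *RT1-CE15* and *RT1-CE16* were the 3 of 12 above 0, with 0.20, 0.06 and 0.08 and overlapping groups. The median over the 12 was -0.29.

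The 3 RT1-A rows, which stand for the classical class I locus, were unlike each other. *RT1-A3* was between 8.80 and 9.09 in LBW pups and between 9.24 and 9.38 in ABW pups. It separated the groups by 0.14, with a log2 fold change of -0.35 (SE 0.11, unadjusted p = 0.0142, limma adjusted p = 0.308). *RT1-A2* had a log2 fold change of -0.44 (SE 0.30), and ABW 1, at 9.50, lay below all LBW pups, while ABW 2 was at 10.78. *RT1-A1* was at -0.02 (95% confidence interval -0.33 to 0.29).

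The RT1-M genes, non-classical class I genes of which *RT1-M3-1* encodes the molecule that presents formylated bacterial peptides, differed from gene to gene. *RT1-M3-1* had a log2 fold change of 0.03 (SE 0.12). *RT1-M1-4*, the member with the lowest mean signal, was at 5.30, 5.22 and 5.19 in LBW 1, 2 and 3 and at 5.21, 5.23 and 5.25 in ABW 1, 2 and 3, so that all pups fell within 0.11. *RT1-M2* was higher in every LBW pup (0.16, SE 0.10) and *RT1-M5* lower in every LBW pup (-0.20, SE 0.13, groups less than 0.005 apart). *RT1-M1-2*, *RT1-M6-1* and *RT1-M6-2* had -0.05, -0.23 and -0.46 with overlapping groups. The median over the 7 was -0.05.

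The partners of the class I heavy chains had a median log2 fold change of -0.12, with *Psmb8* and *Tap2* farthest from 0. *B2m*, the light chain and the member with the highest mean signal, was at 14.64, 14.47 and 14.62 in LBW 1, 2 and 3 and at 14.60, 14.70 and 14.74 in ABW 1, 2 and 3. The groups overlapped, with a log2 fold change of -0.10 (95% confidence interval -0.32 to 0.12, limma adjusted p = 0.706).

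The peptide transporter subunits went in no common direction. *Tap1* was at 9.33, 9.55 and 9.80 in LBW 1, 2 and 3 and at 9.82, 9.19 and 9.56 in ABW 1, 2 and 3, with a log2 fold change of 0.03 (SE 0.19). *Tap2* had the highest log2 fold change of all members, 0.39 (SE 0.22, limma adjusted p = 0.532), and LBW 1 and 2 lay within the ABW range. Neither gene was called.

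The 3 immunoproteasome subunits all had values below 0. *Psmb8* was at 8.81, 8.81 and 8.28 in LBW 1, 2 and 3 and at 8.69, 9.55 and 9.07 in ABW 1, 2 and 3. ABW 1 lay below 2 of the LBW pups, and the log2 fold change was -0.47 (SE 0.25, limma adjusted p = 0.503); without ABW 1 it was -0.68 and past the unadjusted threshold. *Psmb9* was at 9.74, 9.86 and 9.70 in LBW 1, 2 and 3 and at 9.93, 10.08 and 10.05 in ABW 1, 2 and 3. Its groups were 0.07 apart, with a log2 fold change of -0.25 (SE 0.09, unadjusted p = 0.0284, limma adjusted p = 0.351). *Psmb10* had -0.26 (SE 0.23) with overlapping groups.

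The chaperones of the loading complex stayed close to their ABW levels. *Tapbp* had a log2 fold change of -0.20 (SE 0.17), *Calr* 0.03 (SE 0.08), *Canx* 0.15 (SE 0.08) and *Pdia3* -0.13 (SE 0.08). *Canx* was higher and *Pdia3* lower in every LBW pup, and none of the 4 had an unadjusted p under 0.05. Over the 10 loading genes the median was -0.12 and 0 were called, against 4.27% of all features. In 6 (60%) the log2 fold change was below 0, close to the 55.6% of all features. In 2 all LBW pups lay below all ABW pups, against 10.1% of all features, and in 1 all lay above, against 7.27%.

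Class I and class II had close medians. The median log2 fold change was -0.20 over the 39 class I members and -0.18 over the 11 class II members. Their means were -0.19 and -0.35, since *RT1-Db1* and *RT1-Bb* weigh on the second. Class II minus class I, each as the mean deviation from ABW, was -0.03, 0.00 and -0.46 in LBW 1, 2 and 3, versus -0.03, 0.14 and -0.11 in ABW 1, 2 and 3. LBW 1 and 2 lay within the ABW values and LBW 3 below them, so the gap of class II to class I came from a single pup. The class II mean deviation itself was lower in every LBW pup. It was -0.26, -0.18 and -0.62 in LBW 1, 2 and 3, versus -0.08, 0.14 and -0.06 in ABW 1, 2 and 3. No test was made of a score over the members.

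The class I heavy chains were on average 0.29, 0.23 and 0.17 log2 units below the ABW mean in LBW 1, 2 and 3, whereas the ABW pups lay between -0.07 and 0.08. All 3 LBW pups were thus below all ABW pups. The class II chains were 0.30, 0.22 and 0.73 below in LBW 1, 2 and 3, with the ABW pups between -0.10 and 0.14. Over all features the 6 pups lay between -0.01 and 0.02.

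**Figure D3:**
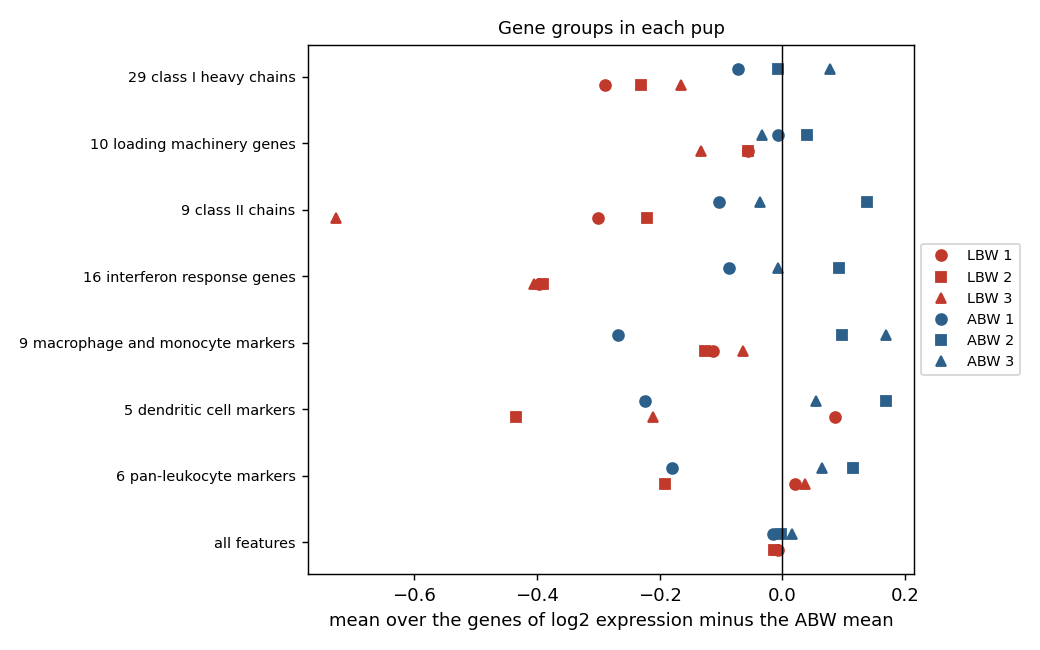
Mean over the genes of a group of log2 expression minus the gene's ABW mean, on the horizontal axis, in each of the 6 pups (LBW red, ABW blue, pups 1 to 3 by symbol). The LBW pups lie below the ABW pups for class I heavy chains, class II chains and interferon response genes, with LBW 3 apart at -0.73 for class II chains. They also lie below for loading machinery genes, by a small margin (LBW 1 at -0.06, ABW 3 at -0.03). The groups overlap for macrophage, dendritic cell and pan-leukocyte markers.

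Class I genes and several loading genes respond to interferon, and genes of the interferon response leaned the same way. Of 16 such genes with a row, 20 listed, 15 had a log2 fold change below 0 (55.6% of all features), the median was -0.35, and 6 separated the groups in the lower direction (10.1% of all features). *Ifit1*, *Rsad2* and *Mx2*, all antiviral effectors, were past the unadjusted threshold as lower, with log2 fold changes of -1.20, -1.07 and -0.82 (limma adjusted p = 0.311, 0.247 and 0.269), where 1.89% of all features were called lower, and none was called higher. The list lay on average 0.40, 0.39 and 0.40 below the ABW mean in LBW 1, 2 and 3, with the ABW pups between -0.09 and 0.09. The LBW pups were close to each other here. Whether interferon signalling had a part in the class I values was not tested.

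The factors that act on class I genes were not lower as a list. Of 10 regulators and partners with a row, 13 listed, the median was 0.01. As lower, 1 was called (10%), against 1.89% of all features. That gene was *Irf2*, an interferon regulatory factor that binds the ISRE, at 10.43, 10.18 and 10.11 in LBW 1, 2 and 3, versus 11.17, 10.90 and 11.04 in ABW 1, 2 and 3. The groups were 0.47 apart, and *Irf2* fell by 0.80 on the log2 scale (SE 0.12, unadjusted p = 0.000462, limma adjusted p = 0.214). *Hspa5*, an endoplasmic reticulum chaperone, had 0.22 (SE 0.10) and was not called. *Nlrc5*, the class I transactivator, had no matched row.

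The regulators of class II genes and the endosomal proteases had a median of -0.11 over 14 genes with a row, 16 listed. Of the 14, 0 were called, against 4.27% of all features. *Nfya* and *Nfyb*, subunits of NF-Y, had log2 fold changes of -0.49 (SE 0.32) and -0.34 (SE 0.16). *Creb1*, which also binds class II promoters, had -0.37 (SE 0.20), and *Spi1*, the myeloid factor PU.1, had 0.26 (SE 0.28). *Ctsb*, a lysosomal protease, was among the brightest of the list and had -0.06 (SE 0.08). Of 5 MHC-like molecules outside RT1 with a row, 0 were called. *Procr*, the endothelial protein C receptor, and *Hfe*, the iron regulator, separated the groups as lower at -0.44 and -0.42 (limma adjusted p = 0.305 and 0.323). They were 2 of the 5 (40%), where 10.1% of all features separated as lower.

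Markers of the cells that can carry class II were read from the same arrays. Over all features, 4.27% were called in either direction, 10.1% separated the groups as lower and 7.27% as higher. In lists this short, counts of 0 are close to those shares. Of 9 macrophage and monocyte markers with a row, 12 listed, 0 were called, 0 separated the groups in either direction and the median was -0.08. Their mean deviation was -0.11, -0.13 and -0.06 in LBW 1, 2 and 3 and -0.27, 0.10 and 0.17 in ABW 1, 2 and 3, with ABW 1 the lowest of all pups. *Adgre1*, the F4/80 antigen, was the lowest of the list at -0.51 (SE 0.39). It was at 8.97 in LBW 3, 10.03 and 10.08 in LBW 1 and 2, and 9.56 in the lowest ABW pup. *Lyz2*, *Cd14* and *Cd68* were the 3 markers above 0, at 0.16, 0.14 and 0.07. In these, LBW 3 was the highest of all pups, at 11.98, 11.56 and 12.50.

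Of 5 dendritic cell markers with a row, 12 listed, 0 were called, against 4.27% of all features. The median was -0.33, with mean deviations of 0.09, -0.43 and -0.21 in LBW 1, 2 and 3 and -0.22, 0.17 and 0.05 in ABW 1, 2 and 3, so that the groups overlapped. *Clec10a* had -0.52 (SE 0.22), *Cd86* -0.40 (SE 0.18) and *Batf3*, a transcription factor of cross-presenting dendritic cells, 0.38 (SE 0.12), higher in every LBW pup. The defining markers *Itgax*, *Flt3*, *Xcr1*, *Clec9a* and *Zbtb46* had no matched row. Only 3 of 8 B cell markers had a row, with *Ms4a1* and *Cd79a* among those without one. Of the 3, 0 were called, against 4.27% of all features, and the median was -0.08.

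Of 6 pan-leukocyte markers with a row, 8 listed, 0 were called, against 4.27% of all features. Their median was -0.06, and LBW 1 and 3 lay within the ABW range of mean deviations. *Ptprc*, the pan-leukocyte antigen CD45, had no matched row. Of 11 T and natural killer cell markers, 13 listed, *Cd4* was called, at -0.61 (SE 0.18, limma adjusted p = 0.302), and the median was -0.05. Of that list, 9.09% was thus called lower, against 1.89% of all features. *Cd4* is carried by helper T cells and, in the rat, by macrophages too. Of 4 endothelial markers with a row, 8 listed, 0 were called, against 4.27% of all features. *Esam* and *Emcn*, both proteins of the vessel lining, separated the groups as lower at -0.29 each. They were 2 of the 4 (50%), where 10.1% of all features separated as lower. *Kdr* (-0.12) and *Pecam1* (0.06) overlapped between the groups. The part of these cells in the values of the class II genes was not tested.

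**Figure D4:**
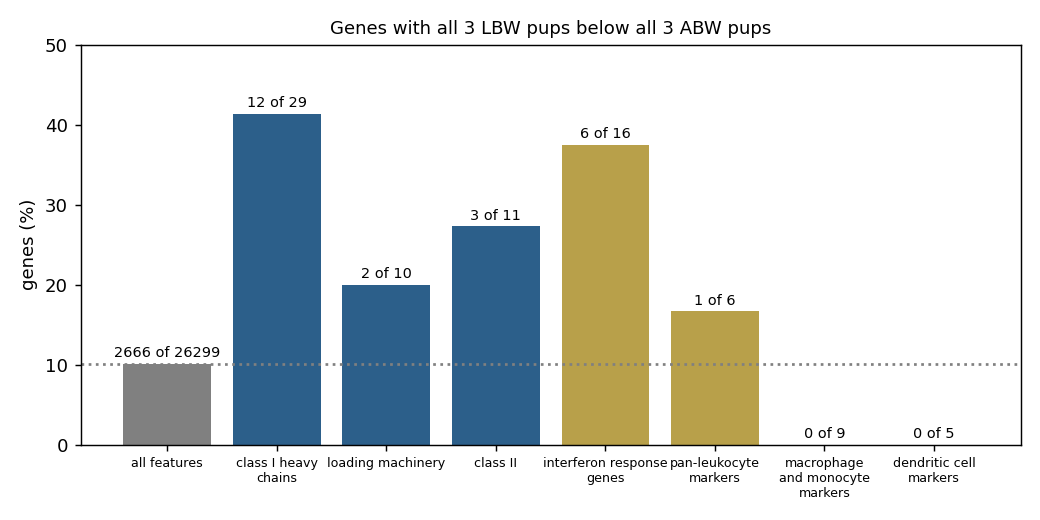
Share of genes in percent, on the vertical axis from 0, for which all 3 LBW pups lay below all 3 ABW pups, with the count and the number of genes with a row above each bar. The dotted line is the share over all 26299 features (10.1%). Class I heavy chains (12 of 29), loading genes (2 of 10) and class II (3 of 11) lie above it. So do interferon response genes (6 of 16) and pan-leukocyte markers (1 of 6). In this direction 0 of 9 macrophage and monocyte markers and 0 of 5 dendritic cell markers separated. In lists this short, 0 is close to the dotted line.

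The mean deviation of the bone and neutrophil genes was lowest among LBW pups in LBW 2, yet still 1.08 above the ABW mean there. A link between these genes and the values of the members was not tested. Leaving out LBW 2 keeps the LBW pups in which the bone and neutrophil genes were highest. *RT1-N3* was at 7.15 in LBW 2, and without LBW 2 the medians of class I and class II were -0.21 and -0.16. Without LBW 2, *RT1-N3*, *RT1-Db1* and *RT1-Bb* were again the members past the unadjusted threshold, and 0 members passed after adjustment by limma, where 125 of all features did.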

How the data were processed

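The authors deposited log2 values for 26419 transcripts on NimbleGen single-colour rat arrays, 5 probes each, which they had normalized in R with Bioconductor; the submitters' processing notes name RMA, so background correction, normalization and probe summary are already in the values. Background and detection calls were not used here. Symbols came from a RefSeq gene table (GRCr8) through unversioned accessions and covered 9747 rows (36.9%). Rows of a symbol were averaged and rows without a symbol kept, giving 26299 features. No coordinates of array rows are given, because the array follows another build.

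Features were tested in limma 3.58.1 under R 4.3.3 (lmFit and eBayes, 2-sided, Benjamini-Hochberg over all features), which was tested on simulated data. The threshold of the methods was unadjusted p under 0.05 with a fold change of at least 1.5. Exact permutation tests of single genes cannot go below 0.1. Arrays have no count depth, and their number limits the precision. The members and lists were chosen with earlier results of these data known, so lists are described by counts and medians without a test. Every member is named; the 6 values are given for members past the threshold, for some partners and for the highest and lowest mean, and other genes whose values are given in full were chosen after their values were seen. For a context list, up to 4 genes with the largest differences and up to 2 with the highest signal were named. The 3 macrophage and monocyte markers above 0 were named as well. Some genes of these lists are not reported here. Motifs were searched in RefSeq promoter windows, which matched 44 of 50 members. Alternatives were a replicate block, each pup left out, quantile normalization, median centring and leaving out the lowest 25% of features. Others were an intensity trend, a robust variance, Student's t-test, rows not averaged and a fold change of at least 2.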

Additional observations from a re-analysis of the deposited data

How the results depend on the processing

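Members past the unadjusted threshold were *RT1-N3*, *RT1-Db1* and *RT1-Bb* under quantile normalization, median centring, the filter on low signal, the intensity trend, the robust variance, rows not averaged and a fold change of at least 2. With each pup left out, limma called between 1 and 5 members (1 without ABW 2 or ABW 3, *RT1-N3*), 798 to 1546 features at the unadjusted and 0 to 125 at the adjusted threshold, 125 without LBW 2. Without ABW 1, *Psmb8* and *RT1-A2* (-0.79) were added, and without LBW 3, *RT1-M6-2* (-0.72) and *RT1-T24-4* (-0.63) were added and *RT1-Bb* lost. Student's t-test called 584 features and 1 member, *RT1-N3*, and 0 after Benjamini-Hochberg. A fold change of at least 2 left 335 features. The class I median ranged from -0.23 to -0.14 and the class II median from -0.21 to -0.086 (without ABW 2) over the pups left out, and the class II mean was -0.35.

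The labels do not say whether the replicate numbers pair the pups. Deviations from the group means correlated at 0.09, 0.10 and 0.06 between same-numbered pups. Between pups of different numbers they correlated lower, from -0.10 to 0.02, and a pairing was not tested. A replicate block called 1230 features, 0 after adjustment, and the same 3 members.

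Some members changed sign without being called. They included *RT1-S3* (-0.23), *RT1-CE2* (0.20) and *RT1-Ba* (-0.18), about as far from 0 in the main fit as the class medians. With each pup left out, the log2 fold change ran for *RT1-A1* from -0.12 to 0.070, for *RT1-CE10* from -0.23 to 0.041, for *RT1-DOa* from -0.11 to 0.10, for *RT1-DOb* from -0.092 to 0.056, for *RT1-M1-4* from -0.022 to 0.032, for *RT1-CE16* from -0.048 to 0.26, for *RT1-CE2* from -0.0049 to 0.45. It ran for *RT1-Ba* from -0.37 to 0.0092, for *RT1-CE15* from -0.042 to 0.16, for *Tap1* from -0.13 to 0.18, for *RT1-M3-1* from -0.068 to 0.11, for *Ciita* from -0.19 to 0.12, for *RT1-S3* from -0.45 to 0.14. Quantile normalization turned *RT1-DOb* (0.0061) and median centring *RT1-M1-4* (-0.0037). The cause was not tested.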
